A study of Mus musculus with 3 samples.

Results

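The genes examined were 10 of the TGF-beta pathway, among 22457 genes counted in mouse regulatory T cells. They were taken by name, but earlier results of these data were known when they were chosen. They are the ligand gene Tgfb1, the genes Furin and Lrrc32 that act on its product, the receptor genes Tgfbr1 and Tgfbr2, the signal carrier genes Smad2, Smad3, Smad4 and Smad7, and the corepressor gene Ski. All 10 were found in the deposited counts. The data were polyA plus RNA-seq of primary regulatory T cells from adult mice aged 4 months, which the labels trace to haematopoietic cells of the bone marrow. There was 1 group of 3 libraries, numbered as technical replicates of 1 biological replicate, with no other strain, genotype, treatment or time. The design therefore allowed levels to be described and the libraries to be compared with each other, but no comparison between conditions. The sources used here do not give the strain, the number of animals pooled or the sort.

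TGF-beta is made as a precursor that the convertase furin cuts, after which the mature dimer stays wrapped in its own propeptide. The membrane protein GARP, encoded by Lrrc32, is known for holding this latent complex on the surface of regulatory T cells, where the integrin of the Itgav and Itgb8 chains can release the ligand. Free ligand binds the type II receptor Tgfbr2, which phosphorylates the type I receptor Tgfbr1, which in turn phosphorylates Smad2 and Smad3. These join Smad4 and enter the nucleus. Smad7 blocks the receptors and Ski represses Smad target genes, so that both restrain the pathway. TGF-beta signalling is a known inducer of Foxp3 and of the integrin gene Itgae in T cells.

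The sites at which these proteins act on each other are shown by their coding sequences, since each links a pair of members. The stretches are from GENCODE M21 transcripts on GRCm38, written 5′ to 3′ along the gene, with the site in capitals. In Tgfb1 the capitals mark codons 275 to 278 of 390, the only match in the coding sequence to the convertase pattern of an arginine, any residue, a lysine or arginine, and an arginine, where furin separates propeptide and ligand. The stretch lies in exon 5 of 7 (chr7:25697211-25697270, plus strand). In Tgfbr1 the capitals mark codons 187 to 192 of 503, the alternating serines and glycines of the box that the type II receptor phosphorylates. The stretch runs from exon 3 into exon 4 of 9 (chr4:47393453-47396377, plus strand, intron left out). In Smad3 they mark the last codons before the stop, 422 to 425, whose serines the type I receptor phosphorylates, in exon 9 of 9 (chr9:63650265-63650324, minus strand).
Tgfb1: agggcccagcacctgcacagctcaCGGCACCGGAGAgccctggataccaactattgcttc
Tgfbr1: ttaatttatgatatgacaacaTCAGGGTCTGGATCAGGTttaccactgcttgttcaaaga
Smad3: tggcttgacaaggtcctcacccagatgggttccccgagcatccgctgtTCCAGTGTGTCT
Of these 60 bases, 61.7% were G or C in Tgfb1, 36.7% in Tgfbr1 and 58.3% in Smad3, and coding GC content is set beside the levels further on.

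Total counts ranged from 2872350 to 3228215 per library, and 3 counts, taken as the floor of detection, corresponded to 0.929 to 1.04 counts per 1000000 counted (CPM). Levels of a gene are given in CPM as mean ± SD over the libraries (n = 3), where SD describes how the libraries varied; by their labels they are technical replicates. Intervals are 95% exact binomial intervals and cover counting error only. For ratios of the highest to the lowest library, the pair was picked from the same counts. Those intervals do not allow for that choice. The labelled cell type was checked with Foxp3, Il2ra, Ctla4 and Ikzf2, which were present in every library with a summed level of 1083 to 1167 CPM. The 5 general T cell markers summed to 2614 to 2759 CPM. Of these, Cd3e, Cd3d, Cd3g and Lck had 2.16, 2.12, 2.19 and 2.00 counts per coding base on average over the libraries, and the highest among all genes with at least 1 kilobase of coding sequence was 2.14, so the sum of these markers lies at the top of what the counts reach. Whether an upper limit holds it down was not tested. The members, at 0.0203 to 0.322 counts per coding base, lay far below. Markers of other cells were also found. The 8 B cell markers summed to 235, 320 and 457 CPM in libraries 1, 2 and 3, the 7 erythroid markers to 9.36, 174 and 150 CPM and the 8 neutrophil markers to 1.56, 78.7 and 9.40 CPM. The 7 monocyte and macrophage markers summed to 39.6, 27.3 and 56.7 CPM. The 8 markers of dendritic cells and MHC class II summed to 701, 835 and 1090 CPM. Of these, Cd74, H2-Aa, H2-Ab1 and H2-Eb1 had means of 482, 147, 132 and 107 CPM. Itgax, Flt3, Batf3 and Siglech had means of 0.866, 4.21, 0.427 and 1.59 CPM, so the sum came mostly from Cd74 and the H2 genes. The 7 megakaryocyte and platelet markers summed to 4.99, 7.74 and 4.18 CPM, of which 1, Itga2b, reached 1 CPM in every library. The 8 stroma and endothelium markers stayed at 1.86 to 2.18 CPM in sum, with Pdgfrb and Kdr at 0. Single genes of these lists, chosen after their values were seen, went against the label of technical replicates. The haemoglobin gene Hbb-bs had 0, 167 and 145 counts and the neutrophil granule gene Ngp 1, 96 and 3 counts in libraries 1, 2 and 3. Both passed the test between libraries described further on, also with a variance common to all genes (adjusted p = 1.95e-11 and 1.02e-20, edgeR dispersion). The libraries therefore differed in more than counting error, and whether they came from 1 RNA sample cannot be told from these data.

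All 10 members reached 1 CPM in every library, against 48.4% of all genes, and their median level was 32.5 CPM. Because CPM grows with gene length, levels of different genes were compared after division by coding length and scaling to a sum of 1000000 over all genes with a coding sequence, called the level per coding length. On this scale the members spanned from 8.51 to 134, and the genes with a count had a median of 18.8. The order from high to low was Lrrc32, Tgfbr1, Smad2, Tgfbr2, Smad4, Ski, Furin, Smad3, Tgfb1 and Smad7. Neighbours in this order overlapped in their library ranges among the first 3 (Lrrc32 with Tgfbr1, Tgfbr1 with Smad2) and among the last 4 (Furin with Smad3, Smad3 with Tgfb1, Tgfb1 with Smad7). From Smad2 to Tgfbr2, Tgfbr2 to Smad4, Smad4 to Ski and Ski to Furin, each step held in all 3 libraries without overlap. With union exon length in place of coding length, Smad4 stood above Tgfbr2 (37.5 against 33.2) and Smad7 above Tgfb1 (6.98 against 6.56), while the other steps kept their direction.

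**Figure D1:**
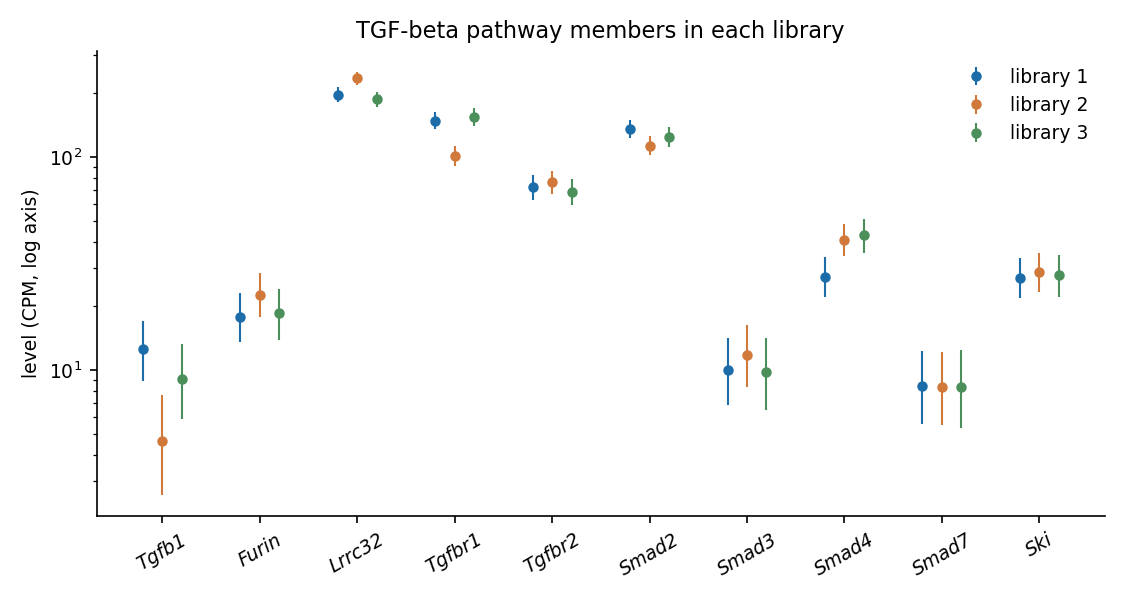
Level of the 10 members in CPM (log axis) in libraries 1, 2 and 3, with 95% exact binomial intervals as bars. Lrrc32 lies highest at 187 to 234 CPM, while Tgfb1, Smad3 and Smad7 lie lowest at 4.65 to 12.5 CPM.

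The ligand gene stood at a low level and the gene of its surface docking protein at a high one. Tgfb1 (ENSMUSG00000002603.15, chromosome 7, 25687002 to 25705077, plus strand) had 40, 15 and 26 counts, or 12.5 CPM (8.91 to 17.0), 4.65 CPM (2.60 to 7.66) and 9.05 CPM (5.91 to 13.3) in libraries 1, 2 and 3. It was thus lowest in library 2, where its interval did not reach that of library 1. Lrrc32 (ENSMUSG00000090958.2, chromosome 7, 98489283 to 98502181, plus strand) stood at 196, 234 and 187 CPM in libraries 1, 2 and 3. It was highest in library 2, the library with the least Tgfb1. Per coding length Tgfb1 lay below Lrrc32 by 14.9-fold, with log2 ratios of -3.21, -4.89 and -3.60 in libraries 1, 2 and 3 (mean -3.90 ± 0.88, interval of the pooled counts -4.14 to -3.48), and the log2 ratio was -4.77 per exon length and -4.66 with no length correction. The platelet lineage is another known source of GARP. The summed megakaryocyte and platelet markers (4.99, 7.74 and 4.18 CPM in libraries 1, 2 and 3) were also highest in library 2. Their part in the Lrrc32 level and in its difference between libraries was not tested. In bulk RNA, fewer cells with a transcript and less of it per cell cannot be told apart.

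Furin (ENSMUSG00000030530.15, chromosome 7, 80388585 to 80405436, minus strand) stood at 17.8, 22.6 and 18.5 CPM in libraries 1, 2 and 3, and all 3 intervals overlapped. An antisense gene, Gm44851, shares 118 exon bases with Furin. It is not among the counted genes, and since the strand setting is not given in the sources used here, reads of the 2 genes cannot be told apart there. Of the 6 other convertases of the same family, Pcsk7 (83.3 ± 13.8 CPM) and Pcsk4 (16.4 ± 5.31 CPM) led, and Pcsk2, Pcsk5 and Pcsk6 had no count. Per coding length Furin lay 4.36-fold below Pcsk7 (log2 -2.12 ± 0.34, interval -2.37 to -1.90), and the log2 ratio per exon length was -2.90.

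Other ligands were almost absent at this depth. Tgfb2, Inhba and Inhbb had no count in any library, and Tgfb3 had 4, 13 and 2 counts (1.99 ± 1.79 CPM). Of the 11 genes of latency and activation 5 reached 1 CPM in every library. Nrros, a relative of Lrrc32 known to dock latent TGF-beta on myeloid cells and microglia, stood at 227 ± 16.1 CPM, followed by the integrin chain gene Itgb8 at 90.3 ± 4.41 CPM. The integrin partner chain Itgav, chosen after its values were seen, stood at 43.0 ± 5.01 CPM. Per coding length Lrrc32 (134 ± 13.7) and Nrros (136 ± 11.9) did not differ beyond their spread, whereas per exon length Lrrc32 stood at 165 ± 16.8 and Nrros at 205 ± 17.9. Nrros was lowest in library 2 and highest in library 3 (232, 209 and 241 CPM in libraries 1, 2 and 3). The summed monocyte and macrophage markers had the same order (39.6, 27.3 and 56.7 CPM in libraries 1, 2 and 3). Their part in the Nrros level and in its difference between libraries was not tested. The latent TGF-beta binding protein genes Ltbp2 and Ltbp3, the integrin gene Itgb6 and Thbs1 stayed under 1 CPM in every library.

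Both receptor genes were well measured, and the type I receptor gene varied while the type II receptor gene did not pass the test. Tgfbr1 (ENSMUSG00000007613.15, chromosome 4, 47353222 to 47414931, plus strand) stood at 148, 101 and 154 CPM in libraries 1, 2 and 3, from 475, 326 and 442 counts. Library 2 was apart from the other two, whose intervals overlapped. The summed monocyte and macrophage markers were also lowest in library 2 and highest in library 3, and the neutrophil markers were highest in library 2, and their part in the Tgfbr1 difference was not tested. Tgfbr2 (ENSMUSG00000032440.13, chromosome 9, 116084293 to 116175360, minus strand) stood at 72.0, 75.9 and 68.6 CPM in libraries 1, 2 and 3, with overlapping intervals. The Tgfbr2 level per coding length was below that of Tgfbr1 in every library, by 2.16-fold on average (log2 -1.11 ± 0.40, interval -1.26 to -0.98), and by least in library 2 (log2 -1.28, -0.65 and -1.40 in libraries 1, 2 and 3). Among the 13 other receptors and co-receptors of the superfamily 6 reached 1 CPM in every library. The highest were the co-receptor gene Tgfbr3 (26.9 ± 3.78 CPM) and the activin type I receptor gene Acvr1b (13.5 ± 2.24 CPM), and per coding length Tgfbr2 stood at 52.7, against 13.7 for Tgfbr3 and 11.6 for Acvr1b. Eng, Bambi, Acvr1, Acvr2b, Bmpr1b and Amhr2 were under 1 CPM in every library.

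Smad2 far exceeded Smad3, although both carry the TGF-beta signal. Smad2 (ENSMUSG00000024563.16, chromosome 18, 76241580 to 76310963, plus strand) stood at 136, 113 and 124 CPM in libraries 1, 2 and 3, highest in library 1. Smad3 (ENSMUSG00000032402.12, chromosome 9, 63646767 to 63757994, minus strand) stood at 9.98, 11.8 and 9.75 CPM in libraries 1, 2 and 3, from 32, 38 and 28 counts. In every library Smad3 was far below Smad2, and the libraries overlapped in their intervals for each gene. Per coding length Smad3 was 10.8-fold lower than Smad2 (log2 -3.63, -3.13 and -3.54 in libraries 1, 2 and 3, interval -3.74 to -3.13), and per exon length the log2 ratio was -2.90.

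Smad4 (ENSMUSG00000024515.13, chromosome 18, 73639009 to 73703780, minus strand), the partner shared by the TGF-beta and BMP branches, stood at 27.4, 40.9 and 42.8 CPM in libraries 1, 2 and 3. Library 1 was low, and its interval (22.0 to 33.8) lay below those of libraries 2 and 3 (34.2 to 48.5 and 35.6 to 51.1). The summed markers of B cells and of dendritic cells with MHC class II, the latter mostly Cd74 and the H2 genes, were also lowest in library 1 and highest in library 3. The erythroid markers (9.36, 174 and 150 CPM in libraries 1, 2 and 3) and the neutrophil markers were lowest in library 1 too, and the part of these lists in the Smad4 difference was not tested. Against the sum of Smad2 and Smad3 per coding length, Smad4 was 4.40-fold lower (log2 -2.14 ± 0.45), but per exon length the log2 ratio was only -0.71, so its size rests on the choice of length. Smad7 (ENSMUSG00000025880.11, chromosome 18, 75367529 to 75395935, plus strand), the inhibitory Smad, stood at 8.42, 8.36 and 8.36 CPM in libraries 1, 2 and 3, from 27, 27 and 24 counts. Its log2 ratio to Smad3 was -0.32 ± 0.15 with an interval that spans 0 (-0.78 to 0.11), so a difference between these genes was not detectable at this depth. Among the Smads of the BMP branch, Smad5 (23.6 ± 2.51 CPM) and Smad1 (15.2 ± 4.31 CPM) were present, while Smad9 and the other inhibitory Smad, Smad6, had no count. Smad2 per coding length (115 ± 12.8) stood above Smad5 (22.0 ± 2.78) and Smad1 (14.1 ± 3.83) without overlap.

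Ski (ENSMUSG00000029050.15, chromosome 4, 155154075 to 155222592, minus strand) stood at 27.1, 28.8 and 27.9 CPM in libraries 1, 2 and 3. Ski and Smad7 had the smallest ratios of highest to lowest library among the members. The interval of the Smad7 ratio was wide (0.583 to 1.83), so its counts are too few to call it steady. The Ski relative Skil, which encodes the corepressor SnoN and is a known response gene of the pathway, was higher at 175 ± 19.0 CPM. Per coding length Ski lay 6.73-fold below Skil (log2 -2.75 ± 0.20, interval -2.95 to -2.56), and the log2 ratio per exon length was -1.84. Of the 9 nuclear partners 8 reached 1 CPM in every library. The acetyltransferase gene Crebbp was the highest of them in CPM, at 422 ± 17.1, and Foxh1 was under 1 CPM. Tgif1, a corepressor gene chosen after its values were seen, had a level per coding length of 125 ± 6.5, close to Skil (112 ± 14.3).

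**Figure D2:**
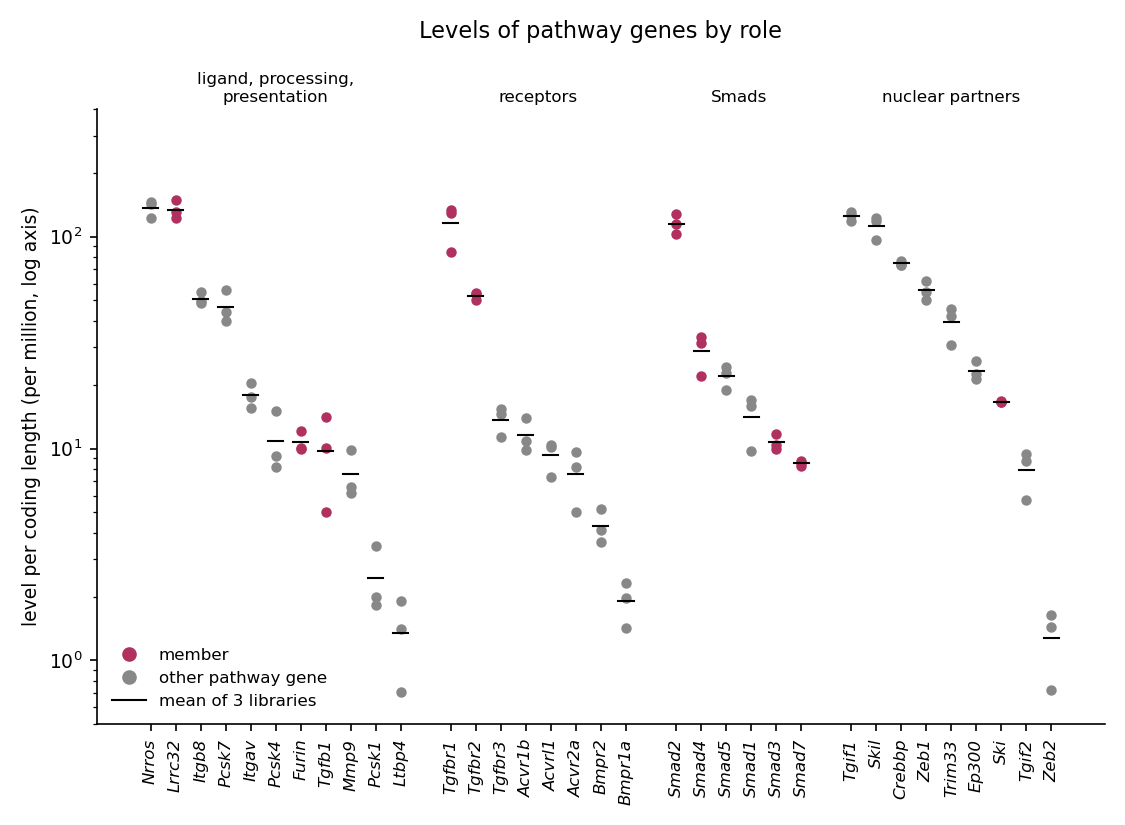
Level per coding length (per 1000000, log axis) of members (red) and other pathway genes (grey) that reached 1 CPM in every library, by role, with 1 point per library and the mean as a line. Lrrc32 stands beside Nrros, the receptors Tgfbr1 and Tgfbr2 stand above the other receptors, and Smad2 stands above all other Smads.

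Genes further along the pathway were largely present. Of 15 genes of receptor and Smad turnover and adaptors 13 reached 1 CPM in every library, and Dab2 was under 1 CPM. The deubiquitinase genes Usp4 (505 ± 22.4 CPM) and Usp15 (386 ± 52.2 CPM) were highest in CPM. Per coding length Fkbp1a, chosen after its values were seen, stood higher at 367, against 227 for Usp4 and 171 for Usp15. All 4 genes of the TAK1 branch, which signals without Smads, reached 1 CPM, with the adaptor gene Tab2 at 83.6 ± 9.46 CPM and the ubiquitin ligase gene Traf6 at 60.8 ± 3.90 CPM. Among known response genes, Itgae (the CD103 integrin chain) stood at 463 ± 64.0 CPM and Ldlrad4, an inhibitor that binds Smad2 and Smad3, at 78.5 ± 7.69 CPM. Over all 70 other pathway genes that matched, 44 reached 1 CPM in every library and 10 had no count, and the median level per coding length was 22.8 for the members, against 7.81 for these.

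Differences between the libraries were tested for each gene by a chi-square test of its 3 counts against Poisson expectation, with p-values adjusted by Benjamini-Hochberg over 10282 genes. Of all genes tested 27.6% passed an adjusted p of 0.05. All 10 members were tested and 4 passed, which with so few genes is near that background. They were Tgfbr1 (adjusted p = 1.01e-08), Lrrc32 (adjusted p = 0.00530), Tgfb1 (adjusted p = 0.0135) and Smad4 (adjusted p = 0.0182, chi-square test for each). After library sizes were equalised by the TMM method, the Tgfbr1 count in library 3 was 1.56-fold that in library 2 (interval 1.35 to 1.80). For Tgfb1 the highest library, 1, exceeded the lowest, 2, by 2.75-fold (1.49 to 5.37), for Lrrc32 library 2 exceeded library 3 by 1.22-fold (1.09 to 1.37), and for Smad4 library 3 exceeded library 1 by 1.56-fold (1.17 to 2.07). These 4 genes did not share an order: library 2 was lowest for Tgfb1 and Tgfbr1 and highest for Lrrc32.

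**Figure D3:**
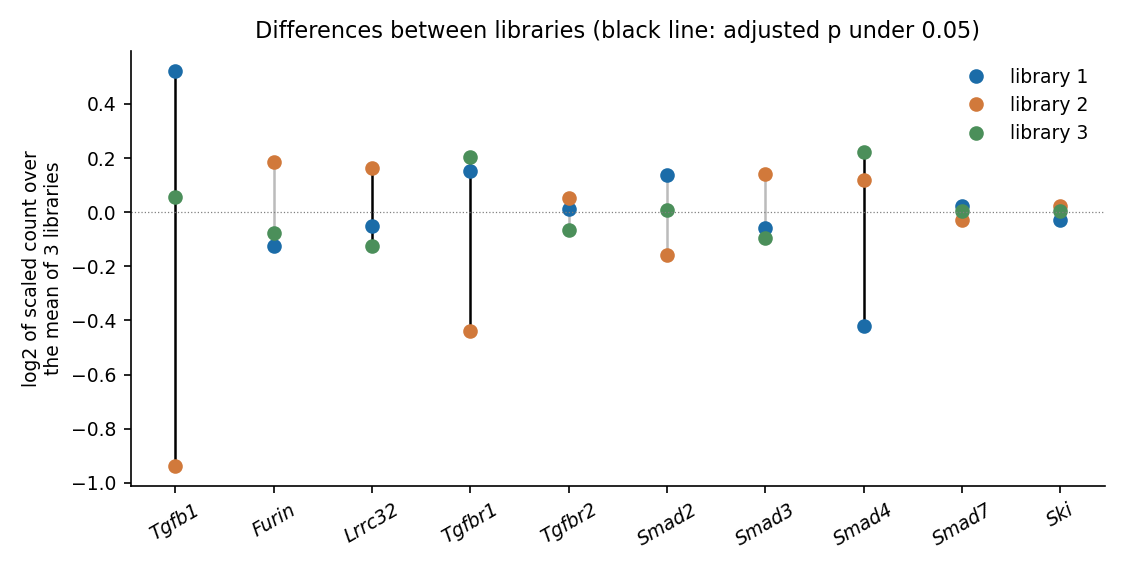
Log2 of each member's scaled count over its mean of the 3 libraries, with 1 point per library, where black lines join the 4 genes with an adjusted p under 0.05 (chi-square test) and grey lines the 6 others. Tgfb1 spans the widest range, 2.75-fold, and Smad7 and Ski the narrowest, 1.03-fold each (intervals 0.583 to 1.83 and 0.764 to 1.40).

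Smad2 was just outside the threshold (adjusted p = 0.0534, chi-square test) with library 1 over library 2 by 1.23-fold (1.07 to 1.41). The adjusted p of Furin, Tgfbr2, Smad3, Smad7 and Ski ran from 0.563 to 0.996 (chi-square test). For Tgfbr2 the highest library exceeded the lowest by 1.08-fold with an interval of 0.893 to 1.31, and for Ski by 1.03-fold with an interval of 0.764 to 1.40. With a variance that allowed for the coefficient of variation common to all genes (12.5%), none of the members passed (adjusted p from 0.492 to 1.00, edgeR dispersion), beside 0.904% of all genes. Without library 2, Smad4 alone of the 10 members passed, beside 960 of 10230 genes tested. The adjusted p was then 0.809 for Tgfbr1, 0.658 for Lrrc32 and 0.469 for Tgfb1 (chi-square test). Without library 1, Tgfbr1 and Lrrc32 passed, beside 1691 of 10243 genes tested. The adjusted p was then 0.124 for Tgfb1 and 0.772 for Smad4 (chi-square test). Without library 3, Tgfb1, Lrrc32, Tgfbr1, Smad2 and Smad4 passed, beside 2014 of 10331 genes tested.

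Of the other pathway genes, 11 of 43 tested passed, a share near that of all genes. They were Nrros, Pcsk4, Pcsk7, Skil, Trim33, Smurf2, Usp9x, Usp15, Stub1, Itgae and Tgfbi, of which Trim33, Smurf2, Usp9x and Stub1 were chosen after their values were seen. Those that passed with a ratio of 1.5 or more were Pcsk4, highest in library 1 by 1.81-fold (1.22 to 2.73, adjusted p = 0.0157, chi-square test), and Tgfbi, highest in library 3 by 4.22-fold (1.66 to 12.7, adjusted p = 0.00637, chi-square test). Tgfbi stood at 3.12, 1.86 and 7.66 CPM in libraries 1, 2 and 3, the order also seen in the summed monocyte and macrophage markers, whose part was not tested. Without library 2 neither Pcsk4 nor Tgfbi passed (adjusted p = 0.103 and 0.108, chi-square test). Pcsk7, Usp15 and Itgae did, which is 3 of 43 pathway genes tested, beside 960 of 10230 of all genes. Without library 1 neither Pcsk7 nor Itgae passed (adjusted p = 0.506 and 0.0752), and without library 3 Usp15 did not (adjusted p = 0.124, chi-square test for each).

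Coding GC content differed among the members and was read beside both their levels and the differences between libraries. It was lowest in Tgfbr1 (44.8%), Smad2 (48.0%) and Smad4 (50.9%), and ran from 56.4% in Tgfbr2 to 63.1% in Ski for the other members. The 5 members lowest per coding length (Ski, Furin, Smad3, Tgfb1 and Smad7) had 56.8% or more, but so did Lrrc32, the highest, with 59.4%. Over all genes with a count, the median level per coding length was 23.5 in genes under 45% GC and 5.57 in those of 60% or more. Among genes of its own GC range (60% or more), Furin lay at percentile 60.1 and Smad7 at 56.6, against 42.5 and 40.1 among all genes with a count. Tgfb1, of 55 to 60% GC, lay at percentile 42.4 in its range and 41.4 among all.

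Library 2 had relatively higher counts of GC-rich genes. Its median log2 ratio to the other libraries was 0.14 in tested genes of 60% GC or more, -0.07 in those of 45 to 50% and 0.01 in those under 45%, the range that holds Tgfbr1, so the ratio did not follow GC in 1 direction throughout. Once the trend with coding GC was removed, a step added after the data were seen, 25.3% of all genes passed and 3 of the 10 members did. Tgfbr1 (adjusted p = 8.62e-08), Tgfb1 (adjusted p = 0.0125) and Smad4 (adjusted p = 0.0158) passed, and Lrrc32 did not (adjusted p = 0.219, chi-square test for each).

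**Figure D4:**
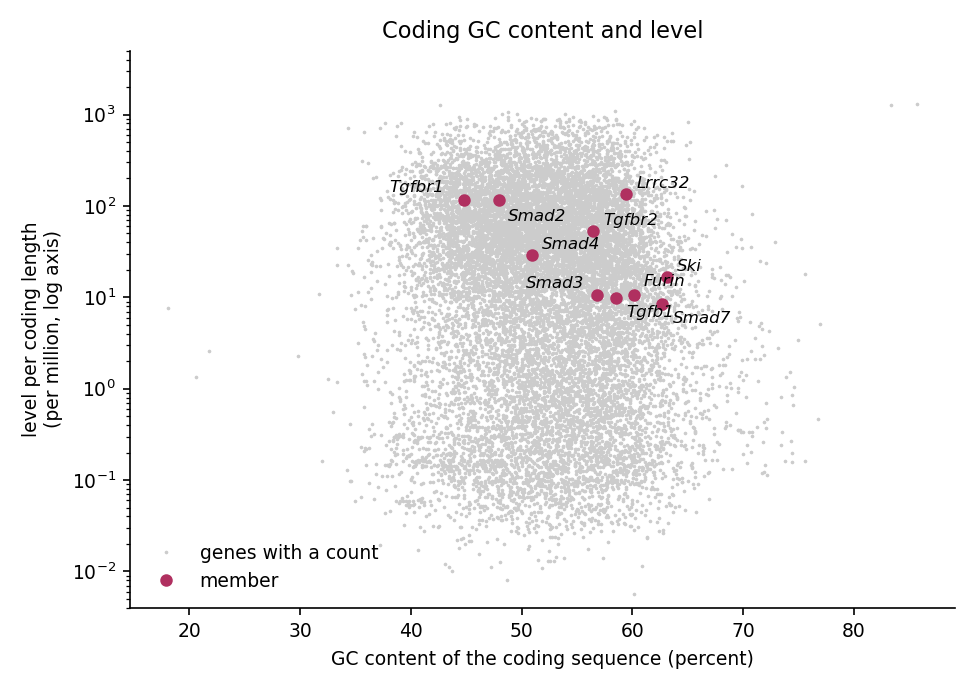
Level per coding length (per 1000000, log axis, mean of 3 libraries) against the GC content of the coding sequence in percent, for all genes with a count (grey) and the members (red). Tgfbr1 and Smad2 lie at low GC and high level, Tgfb1, Furin, Smad3, Smad7 and Ski at high GC and lower level, and Lrrc32 at high GC and high level.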

How the data were processed

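PolyA plus RNA-seq libraries of mouse regulatory T cells were deposited as whole-number counts per gene. The authors counted mm10 alignments over GENCODE M4 genes, per the file descriptions deposited with the libraries. The aligner, the counter, the strand setting and any duplicate removal are steps not given in the sources used here. The deposited counts were whole numbers with a different total in each library, taken as not normalized.

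Symbols, positions, longest coding length, union exon length and coding GC came from GENCODE M21 (GRCm38). Of 22457 identifiers 262 had no symbol there. Genes with a coding length held 99.8% of counts. Of 71 other pathway entries 70 matched, and Ctgf was not analysed here.

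The members and lists were chosen with earlier results of these data known. Named genes were the members, the 2 highest of each pathway list in CPM, called pathway genes with a ratio of 1.5 or more, genes of the ratios, and genes under 1 CPM in every library by name. With 3 technical replicates no gene was named for a similar pattern over libraries. Other genes are marked where named. Some genes of the lists are not reported here.

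For each gene the counts were set against Poisson expectation in a Pearson chi-square test (2 degrees of freedom), mean count at least 10, library sizes by TMM (factors 0.990, 1.02 and 0.993, edgeR 4.0.16 in R 4.3.3). With 1 group, the quasi-likelihood test had nothing to compare. The p-values ask whether the counts of a gene differ between these libraries beyond counting error. They do not measure variation between animals, since the labels name technical replicates. No libraries were identical. In simulated Poisson counts on 10287 genes, 30.0%, 54.0%, 82.0% and 100% of genes changed 1.25, 1.5, 2 and 4 fold in library 2 passed, and 6 of 10087 unchanged genes did. The simulated counts held counting error only, as the test assumes. They check the steps and cannot give the error rate or power in the real libraries, which varied more (common coefficient of variation 12.5%). Alternatives were DESeq2 1.42.0 size factors, totals, TMM over genes of 0.5 or fewer counts per coding base, mean counts of 1 and 50, a common dispersion, removal of the GC trend in 20 bins, exon length, and leaving out each library. Python 3.11.15 and scipy 1.17.1 were used.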

Additional observations from a re-analysis of the deposited data

How the results depend on the processing

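Of the members, 4 passed under DESeq2 size factors, plain totals, TMM over genes with few counts for their coding length, and minimum mean counts of 1 and 50. With the minimum of 50, only 7 members were tested, and 2610 of 7855 genes passed. Tgfb1, Smad3 and Smad7 were then no longer tested, and Smad2 passed. With the common dispersion the counts were 0 members, 0 other pathway genes and 93 genes of all tested, against 2836, and 689 genes had an unadjusted p under 0.05. Leaving out each library gave 1 to 5 members, 3 to 8 pathway genes and 960 to 2014 of all genes. Per union exon length the log2 ratios were -2.90 for Smad3 over Smad2, -0.71 for Smad4 over Smad2 plus Smad3, -0.03 for Smad7 over Smad3, -2.90 for Furin over Pcsk7 and -1.84 for Ski over Skil, and the pathway median was 6.47. The parts of genes that were counted are not known, so neither length is preferred. The other ratios and all single levels moved by less than their SD, which for Tgfb1 over Lrrc32 was wide (-4.77 per exon length against -3.90 ± 0.88). Leaving out a library cannot move a mean over 3 libraries by as much as its SD, so those settings could not show a larger shift. No paired analysis was possible because the labels give 1 group. Depth limits Tgfb1, Smad3 and Smad7, with 15 to 40 counts per library, most.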
